A study of Mus musculus with 139 samples.

Results

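Hs3st3b1, Wls, Cachd1, Dnm3, Srpk2 and Rnf213 were described in single hair cells of the mouse cochlea. These 6 genes, of 55335 gene identifiers in the count table and of 15004 with a symbol and at least 5 CPM (counts scaled to a common library size) in a group, were chosen by measured values of these cells: their pooled level was higher in outer hair cells (OHCs) than in inner hair cells (IHCs) in all 3 regions of the cochlear spiral. They held places 5 to 10 among 21 genes of an earlier ranking of these data by the mean log2 difference between the cell types, of which 10 were taken. Srpk2 was the last inside, at 3.15, and Ahnak at 3.08 and Lpin2 at 3.06 were the first outside. The difference between OHCs and IHCs is therefore given below as a description of how the genes were chosen.

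Each library was made from 1 cell, taken between postnatal days 14 and 16. The labels give the cochlea as the tissue and name a cell type and a region, and give no strain, genotype, sex or treatment. There were 21 apical, 23 middle and 8 basal OHCs, and 34 apical, 34 middle and 19 basal IHCs. The apex is tuned to low frequencies and the base to high ones. The labels do not say what the number in a cell's title stands for, and 81 cells numbered 100 or less (9, 16 and 6 OHCs of the apex, middle and base, and 17, 21 and 12 IHCs) were kept apart from 58 numbered above 100 (12, 7 and 2 OHCs, and 17, 13 and 7 IHCs). No label names an animal, so each group is 1 sample, no difference has a replicate check and no test was run. Counts per cell ran from 71027 to 13576942, and the median OHC held 1655580 counts in the lower-numbered series and 8377260 in the higher-numbered series. Intervals beside a level are 95% exact Poisson intervals and those beside a share of cells are 95% Clopper-Pearson intervals, and they cover counting error only.

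OHCs change length with the receptor potential and so amplify the vibration of the organ of Corti, while IHCs pass the signal to the auditory nerve. The 6 genes belong to different machineries. Hs3st3b1 encodes an enzyme that adds sulfate to heparan sulfate, the sugar chain of cell surface proteoglycans. Wls encodes Wntless, the membrane protein that carries lipid-modified Wnt ligands to the cell surface. Cachd1 encodes a membrane protein related to the alpha2delta subunits of calcium channels. Dnm3 encodes a dynamin, a GTPase of the family that pinches vesicles off membranes, Srpk2 a kinase of the serine- and arginine-rich (SR) splicing factors, and Rnf213 a large ubiquitin ligase with an ATPase core.

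The labels were set beside markers before the genes were read. Pooled Slc26a5, the gene of the OHC motor protein prestin, stood at 697 CPM in apical, 207 in middle and 34.3 in basal OHCs, against 48.3, 1.44 and 0.0608 CPM in IHCs. Otof, the gene of the synaptic protein otoferlin, stood at 213, 25.5 and 0.199 CPM in OHCs, compared with 5448, 3445 and 6506 CPM in IHCs. Single cells varied more. Summed over 11 OHC markers, 20 of 21 apical, 12 of 23 middle and 3 of 8 basal OHCs reached 1000 CPM, a limit picked after the values were seen, against 9 of 34, 6 of 34 and 0 of 19 IHCs. In 8 cells, 4 labelled OHC and 4 labelled IHC, the markers of the other type summed higher than those of the labelled type. The clearest was the apical IHC numbered 110, with 13158 CPM of OHC markers and 873 CPM of IHC markers. Of the 8 basal OHCs, those numbered 41, 49 and 50 had 13433, 2891 and 3005 CPM of OHC markers and the other 5 had between 14.1 and 694 CPM. Values of basal OHCs thus rest on few cells that carry the markers of their label. The one numbered 41, which held most basal OHC counts of each of the 6 genes but Wls, also had 30343 CPM of blood and immune markers, the highest of the 8, and 15702 CPM of mesenchyme, endothelium and pericyte markers. Markers of some other cells were also highest there: 9 of 9 blood and immune markers had counts in every group and summed to 1602, 2036 and 19561 CPM in OHCs of the apex, middle and base, against 401, 672 and 3421 CPM in IHCs. Markers of mesenchyme, endothelium and pericytes, of which 12 of 12 had counts in each OHC group and 11, 12 and 12 in IHCs, summed to 1242, 4737 and 20395 CPM in OHCs and to 512, 2900 and 2211 CPM in IHCs. The 9 markers of neurons and glia had counts in every group and summed to 2322, 4315 and 13084 CPM in OHCs and to 1918, 2903 and 3904 CPM in IHCs. Supporting cell markers, of which 12, 12 and 11 of 12 had counts in OHCs of the apex, middle and base and 12, 11 and 12 in IHCs, summed to 155, 540 and 837 CPM in OHCs and to 1611, 1359 and 520 CPM in IHCs. The part of these cells in the results below was not tested.

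Promoter sequence is shown for Cachd1 and Wls, the members that hold the letters TGGGAA, the core recognised by the Ikaros family of factors to which the OHC marker Ikzf2 (Helios) belongs, and for Hs3st3b1, which does not hold it and whose most alike gene over all cells, both types and series together, was the prestin gene. Each sequence is the 250 bases before the RefSeq transcript start on build GRCm38.p6, in capitals where TGGGAA or its reverse complement was found on either strand. Cachd1 was read at chr4:100776429-100776678 on the plus strand, Wls at chr3:159839400-159839649 on the plus strand and Hs3st3b1 at chr11:63922285-63922534 on the minus strand.
Cachd1: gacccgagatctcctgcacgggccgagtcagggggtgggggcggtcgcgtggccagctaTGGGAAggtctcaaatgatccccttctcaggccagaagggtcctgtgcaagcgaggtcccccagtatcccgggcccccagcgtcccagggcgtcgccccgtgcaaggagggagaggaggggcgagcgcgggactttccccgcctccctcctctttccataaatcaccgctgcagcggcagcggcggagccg
Wls: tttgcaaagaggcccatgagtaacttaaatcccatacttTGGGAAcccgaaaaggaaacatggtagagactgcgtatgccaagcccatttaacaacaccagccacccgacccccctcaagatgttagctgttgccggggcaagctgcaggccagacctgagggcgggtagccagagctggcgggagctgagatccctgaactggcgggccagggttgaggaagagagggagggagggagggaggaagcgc
Hs3st3b1: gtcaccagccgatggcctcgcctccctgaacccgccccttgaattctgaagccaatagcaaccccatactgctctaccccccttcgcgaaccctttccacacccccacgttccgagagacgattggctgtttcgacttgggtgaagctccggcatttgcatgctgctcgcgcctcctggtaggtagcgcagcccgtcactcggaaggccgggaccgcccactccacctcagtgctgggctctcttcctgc
Of the 8 promoters listed for the 6 genes, those of Cachd1 and Wls, 2 in all, held TGGGAA, and 21.6% of all 32851 promoters of that length did. The E-box letters CANNTG were in 5 of 8 (66.2% of all promoters) and TATAAA in 0 of 8 (12.4%). These are matches of letters and say nothing of binding.

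In each region all 6 genes were 2-fold or more higher in OHCs than in IHCs, pooled, as the ranking that chose them required. The shares of all genes given beside this describe how strict that rule was and are no result about the 6. Of the 15004 genes, 28.6% were so among apical cells, 20.7% among middle cells, 16.1% among basal cells and 1.23% in every region, and 8.5% were higher by any amount in every region. None of the 6 was, or by that rule could be, 2-fold or more lower in OHCs. Of all genes, 32.4% were so in apical, 29.7% in middle and 48.9% in basal cells and 7.28% in every region. Each difference compares log2 (CPM + 1), a scale that shrinks the change of low genes, and on it the median of all genes lay at −0.02 for apical, −0.07 for middle and −0.89 for basal cells. The median of the 6 genes, averaged over regions, was 3.79, against −0.59 for all genes. Within cell groups the genes were uneven: the SD over cells exceeded the mean in all 36 combinations of gene and group. Of the 30 pairs of neighbouring groups in the order of pooled level, 1 had overlapping counting intervals, Rnf213 in middle and apical IHCs, and 29 had overlapping quartile ranges over cells. Per kilobase of exon, averaged over the regions, Wls was highest in OHCs at 661 CPM per kilobase (64.8 in IHCs), followed by Dnm3 at 126 (12.2), Cachd1 at 94.4 (10.1), Srpk2 at 82.5 (12.8), Hs3st3b1 at 74.8 (4.97) and Rnf213 at 3.78 (0.122). The place of Wls rests on basal OHCs at 1466 CPM per kilobase, nearly all from 1 cell. In apical OHCs Cachd1, at 212, stood above Wls, at 179. In the higher-numbered series, scaled on its own, Wls had only 14.6, 9.09 and 51.3 CPM in OHCs.

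**Figure D1:**
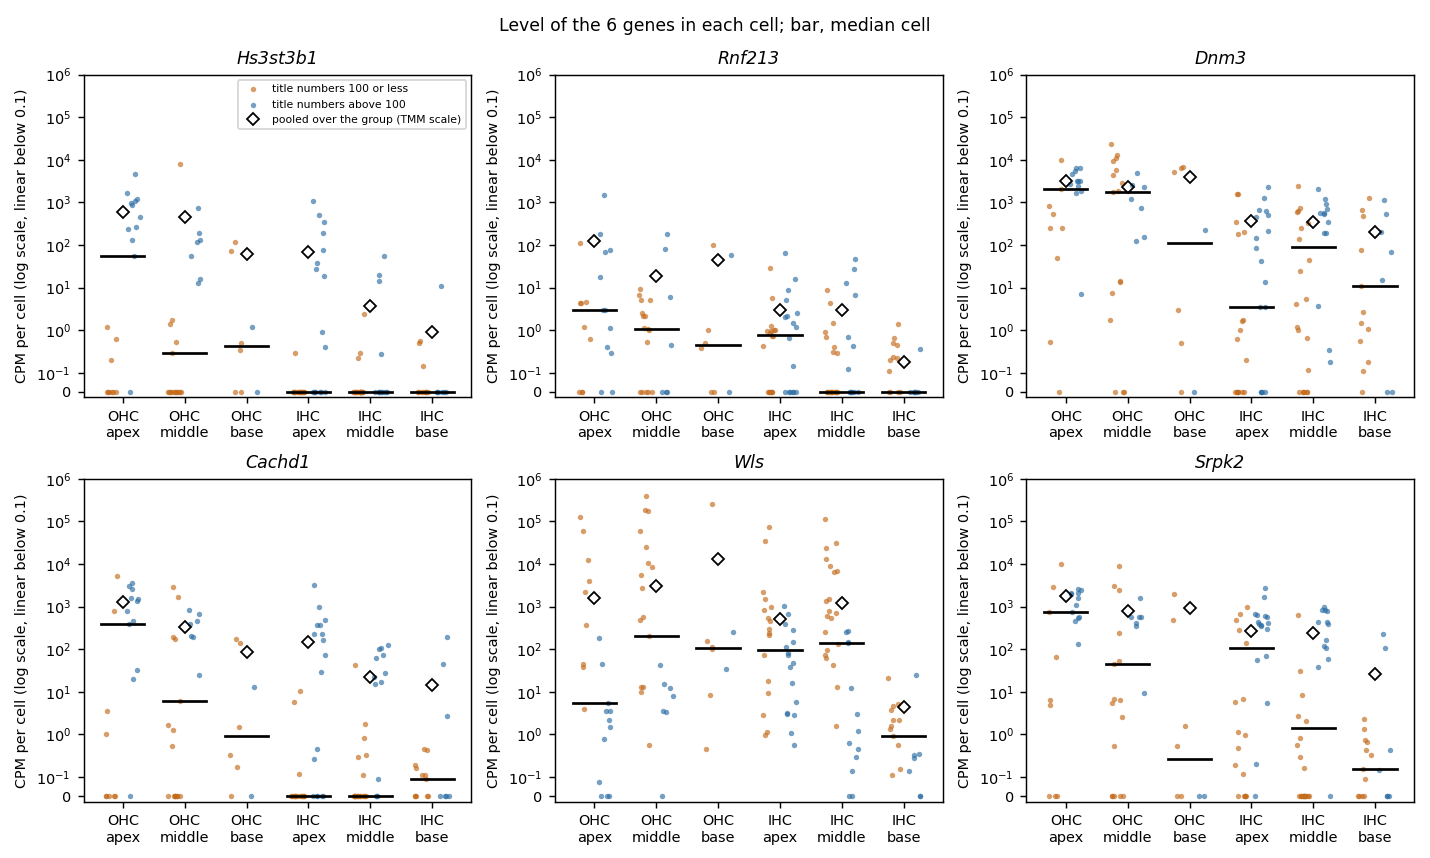
CPM of each gene in every cell on a log axis that is linear below 0.1, by group, with 81 cells numbered 100 or less in orange, 58 numbered above 100 in blue, black bars at the median cell and diamonds at the pooled level. The median Dnm3 level is 2100.2 CPM in apical and 1739 CPM in middle OHCs, and Wls spans from 0 to 403673 CPM among middle OHCs.

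Hs3st3b1 (chromosome 11, 63885792 to 63922290, minus strand, 4911 exonic bases) had a pooled level of 591 CPM (586 to 595) in apical OHCs, 449 (445 to 452) in middle OHCs and 62.3 (58.9 to 65.8) in basal OHCs, against 68.5 (67.2 to 69.9), 3.73 (3.48 to 3.996) and 0.888 (0.735 to 1.07) CPM in IHCs. The log2 differences between OHCs and IHCs were 3.09, 6.57 and 5.07. Among single cells, apical OHCs ran from 0 over a median of 54.1 to 4664 CPM, middle OHCs from 0 over 0.285 to 7868 CPM and basal OHCs from 0 over 0.422 to 120 CPM. IHCs had a median of 0 in each region and highest cells of 1077, 55.7 and 10.8 CPM. The ranges of the types overlapped in each region. The series set these cells apart: 18 of 21 OHCs numbered above 100 had 10 CPM or more, against 3 of 31 numbered 100 or less, and among IHCs 12 of 37 and 0 of 50. In apical OHCs the median was 651 CPM in the higher-numbered series and 0 in the lower. In the middle, the lower-numbered series held 43126 of the 55690 counts of OHCs, of which 43122 came from the OHC numbered 37, while the 7 OHCs of the higher series had a median of 120 CPM and a highest value of 735 CPM.

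Cells were also compared at equal depth, after each was thinned to 582635 counts and 14 shallower cells were left out (2, 5 and 1 OHCs, and 4, 2 and 0 IHCs of the apex, middle and base). Hs3st3b1 then had a read in 63.2% of apical OHCs (38.4% to 83.7%), 55.6% of middle OHCs (30.8% to 78.5%) and 57.1% of basal OHCs (18.4% to 90.1%), against 26.7% (12.3% to 45.9%), 12.5% (3.51% to 28.995%) and 5.26% (0.133% to 26.03%) of IHCs. These shares and intervals, and those of the other genes below, take both series together. In the lower and higher series, 1 of 7 and 11 of 12 thinned apical OHCs had a read of Hs3st3b1. For middle OHCs these were 3 of 11 and 7 of 7, and for basal OHCs 3 of 6 and 1 of 1. For IHCs they were 0 of 14 and 8 of 16, 1 of 19 and 3 of 13, and 0 of 12 and 1 of 7. In unthinned cells Hs3st3b1 had a read in 66.7%, 52.2% and 62.5% of OHCs and 32.4%, 20.6% and 21.1% of IHCs. Slc26a5, whose protein marks OHCs, had a read in 33.3%, 18.8% and 5.26% of thinned IHCs, so the thinned share of Hs3st3b1 in IHCs lay at or below that of a gene they should lack, and no expression is read from that share. Other values differed: unthinned, Slc26a5 had a read in 41.2%, 32.4% and 10.5% of IHCs, and its pooled level (48.3, 1.44 and 0.0608 CPM) and highest cell (318, 19.3 and 1.06 CPM) in IHCs lay below those of Hs3st3b1. The IHC gene Otof in turn had a read in 63.2%, 66.7% and 14.3% of thinned OHCs. The thinned shares of Hs3st3b1 in apical and middle OHCs lay at or below these, so no expression is read from them either. That of Wls in apical OHCs (68.4%) lay near that of Otof. Pooled, Otof in OHCs (213, 25.5 and 0.199 CPM) stood below Hs3st3b1. The part of free RNA in these reads was not tested.

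**Figure D2:**
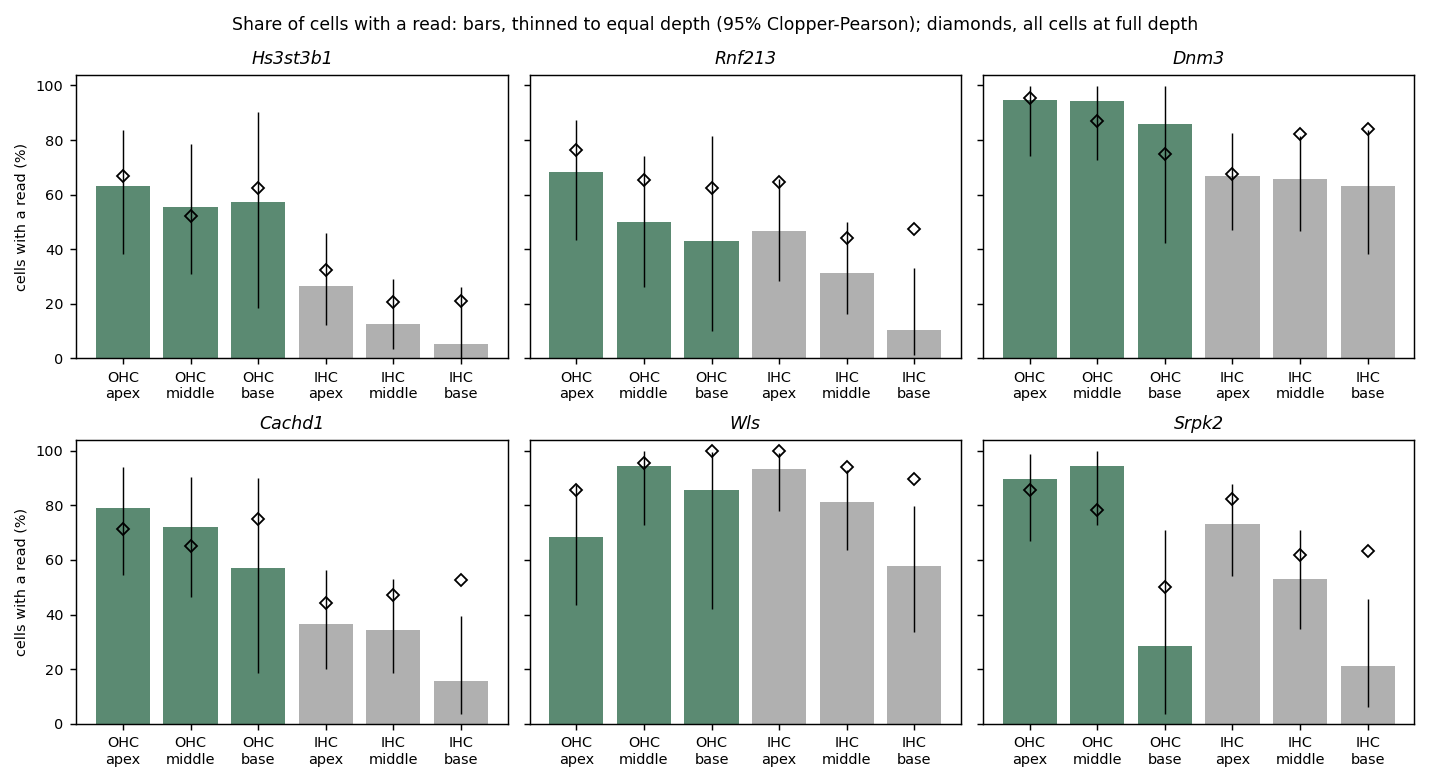
Percent of cells with a read of each gene after thinning to equal depth (bars, green for OHCs and grey for IHCs, with 95% Clopper-Pearson intervals) and in all cells at full depth (diamonds), by region. Hs3st3b1 ran from 55.6% to 63.2% of thinned OHCs and from 5.26% to 26.7% of thinned IHCs, while Wls was found in 68.4% of apical OHCs and 93.3% of apical IHCs.

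Wls (chromosome 3, 159839672 to 159938664, plus strand, 8792 exonic bases) had pooled and single-cell levels that lay far apart. Pooled, it stood at 1569.7 CPM (1562 to 1577) in apical OHCs, 2977 (2968 to 2987) in middle OHCs and 12887 (12837 to 12936) in basal OHCs, against 515 (511 to 519), 1190.4 (1186 to 1195) and 4.43 (4.08 to 4.80) CPM in IHCs, and the log2 differences were 1.61, 1.32 and 11.21. The median apical, middle and basal OHC had 5.51, 203 and 108.35 CPM, against 96.9, 143 and 0.898 CPM for the median IHC, so by the median cell apical OHCs stood below apical IHCs. A single basal OHC, numbered 49, held 99.5% of the Wls counts of its group at 260703 CPM, and the other 7 had between 0.453 and 261 CPM. Without the leading cell of each group the differences were 1.74, 0.24 and 4.30. After thinning, Wls had a read in 68.4%, 94.4% and 85.7% of OHCs, against 93.3%, 81.2% and 57.9% of IHCs, and the intervals of the types overlapped in each region. In the lower and higher series these were 7 of 7 and 6 of 12 apical OHCs, and 13 of 14 and 15 of 16 apical IHCs.

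Wls went with the title numbers in the apex and middle, the other way round from Hs3st3b1. Of OHCs, 26 of 31 in the lower-numbered series and 7 of 21 in the higher had 10 CPM or more, and of IHCs 34 of 50 and 17 of 37. Apical OHCs had a median of 2257 CPM in the lower series and 1.84 CPM in the higher, and middle OHCs 4141 and 8.20 CPM, while basal OHCs had 108.35 and 147 CPM. Apical IHCs had 306 and 47.99 CPM and middle IHCs 694 and 1.24 CPM, while basal IHCs had 1.85 and 0.281 CPM. In the higher-numbered series OHCs stood below IHCs in the apex (log2 −3.62) and middle (−2.20) and above them in the base (3.28), where the series holds 2 OHCs. In the lower-numbered series the values were 2.02, 1.404 and 10.85.

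Wls took a large share of some libraries. It made up 1% or more of all counts in 10 of 31 OHCs and 6 of 50 IHCs of the lower-numbered series and in 0 of 21 OHCs and 0 of 37 IHCs of the higher. The highest share, 40.4%, was in the middle OHC numbered 34, and Wls was the gene with the most counts in 6 OHCs and 3 IHCs. Over the 31 OHCs of the lower series Spearman's rho between Wls CPM and total counts was −0.79, over the 50 IHCs of that series −0.69, over the 21 OHCs of the higher series −0.45 and over its 37 IHCs −0.20. Both values of a cell use its library size, since CPM is a share of the total. Depth and series go together with Wls in these cells, and their part in its level was not tested. Over the 21 higher-series OHCs Wls CPM had a rho of 0.65 with the summed supporting cell markers, and over the 31 lower-series OHCs of −0.05. With blood and immune markers these were 0.45 and −0.06, and with neurons and glia 0.31 and −0.13. Mesenchyme, endothelium and pericyte markers gave 0.21 and −0.44. For OHC markers they were −0.28 and −0.23, for IHC markers −0.13 and 0.34, and for general hair cell markers −0.41 and −0.22.

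**Figure D3:**
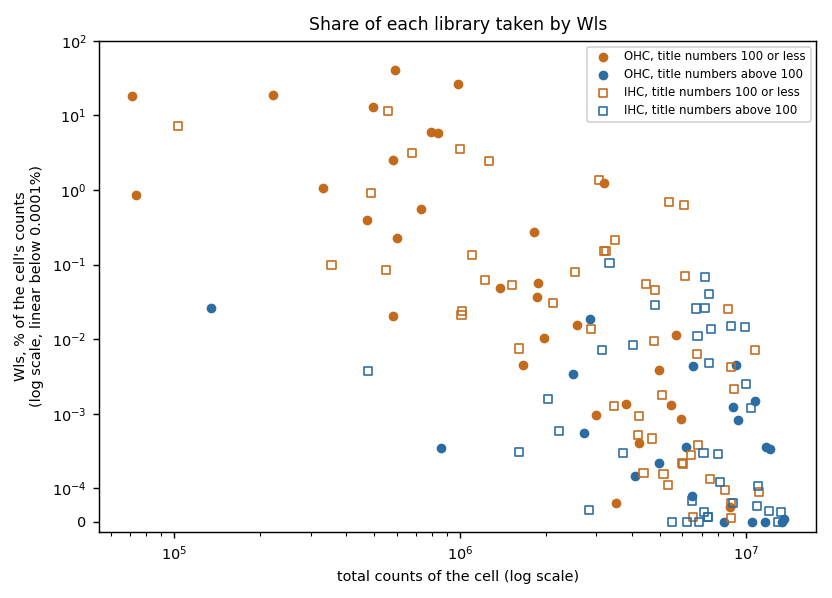
Share of each library taken by Wls (percent, log axis, linear below 0.0001%) against its total counts (log axis); filled circles are OHCs, open squares IHCs, orange cells are numbered 100 or less and blue cells above 100. The highest orange OHCs reach 40.4%, while no blue OHC exceeds 0.0261% and no blue IHC 0.104%.

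Cachd1 (chromosome 4, 100776675 to 101029220, plus strand, 6020 exonic bases) was highest in the apex in both types when cells were pooled. Its pooled level was 1279 CPM (1272 to 1286) in apical, 340.5 (337 to 344) in middle and 84.9 (80.9 to 89.0) in basal OHCs, against 145 (144 to 147), 22.8 (22.2 to 23.5) and 14.4 (13.8 to 15.1) CPM in IHCs, with log2 differences of 3.13, 3.84 and 2.48. Apical OHCs ran from 0 over a median of 390.3 to 5141 CPM, middle OHCs from 0 over 6.01 to 2936 CPM and basal OHCs from 0 over 0.928 to 171 CPM. IHC medians were 0, 0 and 0.0898 CPM, with highest cells of 3259, 127 and 191 CPM. The highest IHC, at 3259 CPM, was the apical cell numbered 110 whose markers were those of OHCs, and it held 30.7% of the Cachd1 counts of apical IHCs. Without the 8 cells whose markers went against the label the differences were 3.57, 3.82 and 3.06. In the higher-numbered series 19 of 21 OHCs and 21 of 37 IHCs had 10 CPM or more, and in the lower 8 of 31 OHCs and 2 of 50 IHCs. At equal depth 78.9% (54.4% to 93.9%), 72.2% (46.5% to 90.3%) and 57.1% (18.4% to 90.1%) of OHCs had a read, against 36.7% (19.9% to 56.1%), 34.4% (18.6% to 53.2%) and 15.8% (3.38% to 39.6%) of IHCs.

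Dnm3 (chromosome 1, 161982453 to 162478034, minus strand, 24452 exonic bases) had the highest share of apical OHCs with a read at equal depth. It tied with Wls and Srpk2 in middle OHCs (94.4%) and with Wls in basal OHCs (85.7%). At full depth Wls had a read in more middle (95.7% against 87.0%) and basal OHCs (100% against 75%). Dnm3 had the lowest ratio of SD to mean over cells in any group, 1.02. Pooled, it stood at 3101 CPM (3090 to 3112) in apical, 2235 (2226 to 2243) in middle and 3884 (3857 to 3911) in basal OHCs, against 358 (355 to 361), 339 (337 to 341) and 197 (195 to 199) CPM in IHCs, with differences of 3.11, 2.72 and 4.29. Single OHCs ran from 0 over a median of 2100.2 to 9966 CPM in the apex, from 0 over 1739 to 23249 CPM in the middle and from 0 over 113.5 to 6854 CPM in the base. IHCs had medians of 3.48, 89.5 and 10.9 CPM and highest cells of 2245, 2465 and 1295 CPM. Basal OHCs split into 3 cells, numbered 41, 49 and 50, at 6489, 6854 and 5207 CPM, and 5 at or below 224 CPM. These 3 are the basal OHCs with the highest sums of OHC markers. At equal depth 94.7%, 94.4% and 85.7% of OHCs had a read, against 66.7%, 65.6% and 63.2% of IHCs. The intervals of the types overlapped in each region. Scaled within each series, the pooled level in OHCs was 510, 4048 and 3220 CPM in the lower-numbered series and 4367, 1581 and 238 CPM in the higher. The order of the regions thus differed between the series. Of the exonic bases of Dnm3, 0.172% are shared with the antisense gene 2810442N19Rik and 1.45% with Gm10176. The transcript Dnm3os lies within Dnm3 on the opposite strand and shares 0 exonic bases with it.

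Srpk2 (chromosome 5, 23503264 to 23684617, minus strand, 13901 exonic bases) had 1738 CPM (1729 to 1746) in apical, 790.0 (785 to 795) in middle and 913 (899 to 926) in basal OHCs, pooled, against 266 (263 to 268), 243 (241 to 245) and 26.9 (26.03 to 27.8) CPM in IHCs. The differences were 2.71, 1.70 and 5.03. Apical OHCs ran from 0 over a median of 737 to 10293 CPM, middle OHCs from 0 over 45.04 to 9143 CPM and basal OHCs from 0 over 0.264 to 1964 CPM. IHCs had medians of 106.25, 1.43 and 0.153 CPM and highest cells of 2722, 1003 and 223 CPM. The basal OHC numbered 41 held 94.6% of the counts of its group, and without the leading cell of each group the differences were 2.57, 0.97 and 2.61. In the higher-numbered series 18 of 21 OHCs and 28 of 37 IHCs had 10 CPM or more, against 12 of 31 and 7 of 50 in the lower. Neither of the 2 basal OHCs numbered above 100 had a count. With the scaling factor of the whole group, 3 counts, the limit used for a count of 0, would be 1.63 CPM (the exact Poisson bound is 2.01 CPM). At equal depth 89.5%, 94.4% and 28.6% of OHCs had a read, against 73.3%, 53.1% and 21.1% of IHCs. The intervals overlapped in the apex and base. In the middle they ran from 72.7% to 99.9% for OHCs and from 34.7% to 70.9% for IHCs. Of its exonic bases 6.99% are shared with Kmt2e on the opposite strand, which stood at 487, 209 and 636 CPM in OHCs, compared with 218, 327 and 1487 CPM in IHCs. The sources do not say if reads were counted by strand, so reads of these bases cannot be told apart.

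Rnf213 (chromosome 11, 119393100 to 119487418, plus strand, 16888 exonic bases) was the lowest of the 6 genes per kilobase and rested on single cells. Its pooled level was 127 CPM (125 to 129) in apical, 18.9 (18.1 to 19.7) in middle and 45.5 (42.6 to 48.6) in basal OHCs, against 2.96 (2.69 to 3.25), 3.03 (2.81 to 3.27) and 0.182 (0.117 to 0.271) CPM in IHCs, with differences of 5.01, 2.30 and 5.30. A single OHC held 72.2% of the counts in the apex, another 72.2% in the middle and the one numbered 41 held 98.2% in the base. The median OHC had 2.90, 1.07 and 0.448 CPM along the spiral and the median IHC 0.787, 0 and 0 CPM. Without the leading cell of each group the differences were 3.62, 1.35 and 0.94. Only 10 of 52 OHCs and 6 of 87 IHCs reached 10 CPM, 8 of these OHCs in the higher-numbered series. At equal depth 68.4% (43.4% to 87.4%), 50% (26.019% to 73.98%) and 42.9% (9.90% to 81.6%) of OHCs had a read, against 46.7% (28.3% to 65.7%), 31.2% (16.1% to 50.01%) and 10.5% (1.30% to 33.1%) of IHCs, and the intervals overlapped in each region. The apical and middle OHC shares lay near or below those of the IHC gene Otof in thinned OHCs (63.2% and 66.7%), so no expression is read from them. The antisense gene A930037H05Rik shares 8.74% of the exonic bases of Rnf213. It stood at 0.925, 0.113 and 0.299 CPM in OHCs and at 0.243, 2.55 and 4.41 CPM in IHCs. In basal IHCs it was thus above Rnf213 (0.182 CPM), and in middle IHCs near it (3.03 CPM). Here too strand of counting is not stated, so reads of the shared bases cannot be told apart.

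Within each series the excess of OHCs was uneven between the genes. In the lower-numbered series all 6 genes were higher in OHCs in each region (6.06% of all genes were), and all 6 were 2-fold or more higher in the mean of the regions (9.84%). In the higher-numbered series 2 genes, Rnf213 and Dnm3, were higher in each region (4.75%), and 4 were 2-fold or more higher in the mean (16.7%). In the base of this series Dnm3 was higher by only 0.06 and Rnf213 by 2.12. All counts of each there, 556 and 8, came from 1 of 2 OHCs. Hs3st3b1 was at −0.32 and Cachd1 at −1.18 in the base of that series, where 1 of its 2 OHCs held all counts of either gene, 3 and 32. In the apex of the lower-numbered series Hs3st3b1 differed by 0.18, with 4 counts in 9 OHCs and 1 count in 17 IHCs. The basal OHC numbered 41 held 30.9% of all counts of its group, and when every group was summed without its deepest cell the basal differences were 2.74 for Hs3st3b1, 0.93 for Cachd1, 2.63 for Dnm3, 1.70 for Srpk2 and 0.77 for Rnf213. These values use the cells that chose the genes and are descriptions.

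**Figure D4:**
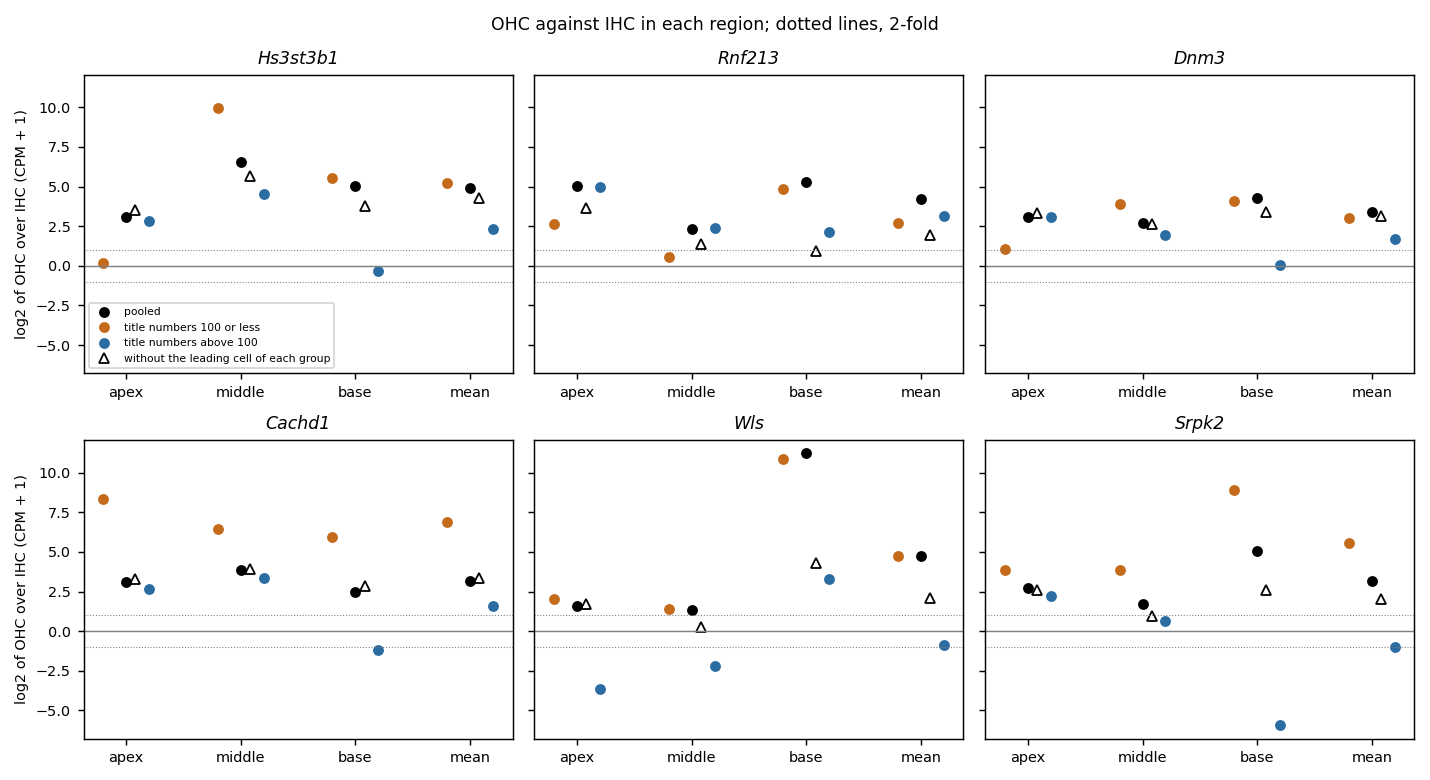
Log2 of OHC over IHC levels (CPM + 1) in each region and in the mean of the regions, pooled (black), in cells numbered 100 or less (orange), in cells above 100 (blue) and without the leading cell of each group (triangles), with dotted lines at 2-fold. Wls in the apex and middle of the blue cells lies at −3.62 and −2.20, and Srpk2 in their base at −5.93, where OHCs had 0 counts.

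Along the spiral, by which the genes were not ranked although the same cells entered the choice, the OHC levels went different ways. In the middle against the apex 0 of 6 genes were 2-fold or more higher (31.4% of all genes) and 3, Rnf213, Cachd1 and Srpk2, were 2-fold or more lower (31.3%), with log2 differences of −2.69, −1.91 and −1.14. Srpk2 was less than 2-fold lower with library totals in place of the scaling factors (−0.72), after thinning (−0.51), without the deepest cells (−0.95), in the mean of the series (−0.95) and in the lower-numbered series (−0.05). Hs3st3b1 was at −0.40 (0.02 with library totals) and Dnm3 at −0.47 (0.07 by the mean cell and 0.85 after thinning). By series these 2 went opposite ways, at 9.94 and 2.99 in the lower-numbered series and −2.43 and −1.47 in the higher. In the base against the apex Wls was higher by 3.04 (17.4% of all genes were 2-fold or more higher), while Hs3st3b1 (−3.22), Cachd1 (−3.90) and Rnf213 (−1.46) were lower, where 47.6% of all genes were 2-fold or more lower and the median of all genes was −0.72. By series Hs3st3b1 was at 5.51 in the lower and −8.57 in the higher, Rnf213 at 1.82 and −5.38, and Cachd1 at −3.46 and −6.76. Rnf213 was less than 2-fold lower with median-of-ratios scaling (−0.71) and without the cells whose markers went against the label (−0.88). Srpk2 was at −0.93 and Dnm3 at 0.32 there. With library totals Dnm3 was at −0.15, and by series at 2.66 in the lower and −4.19 in the higher. By series Wls was at 0.80 in the lower, less than 2-fold higher, and at 1.75 in the higher, both below the pooled 3.04. The pooled Wls value rests on the basal OHC numbered 49, and without the leading cell of each group it was −3.66.

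In IHCs, 1 gene (Wls, 1.21) was 2-fold or more higher in the middle than in the apex (28.7% of all genes) and 2, Hs3st3b1 (−3.88) and Cachd1 (−2.62), were lower (23%). These too differed by series: Wls was at 1.28 in the lower and −2.05 in the higher, Hs3st3b1 at 0.14 and −4.12, and Cachd1 at 0.77 and −2.81. Wls was less than 2-fold higher with median-of-ratios scaling (0.96), by the mean cell (0.77), by the median cell (0.47), after thinning (0.78) and without the shallow cells (0.90), and lower in the mean of the series (−0.38). In basal against apical IHCs 0 were higher (26.5%) and 5 were 2-fold or more lower (31.5% of all genes), with Wls at −6.57, Hs3st3b1 at −5.20, Srpk2 at −3.26, Cachd1 at −3.25 and Rnf213 at −1.74, and Dnm3 was at −0.86. Basal IHCs held both series (12 and 7 cells), and in the lower-numbered one alone the values were −8.03 for Wls, 0.14 for Hs3st3b1, −5.99 for Srpk2, −1.04 for Cachd1 and −0.41 for Rnf213. In the higher-numbered one they were −5.15, −5.42, −2.79, −2.95 and −2.53. Rnf213 was at −0.62 with a pseudocount of 5 CPM and at −0.81 by the median cell. By the median cell Hs3st3b1 was at 0 and Cachd1 at 0.13. With Hs3st3b1 near 0 in lower-series IHCs of either region, its value of 0.14 compares levels of under 1 CPM.

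The genes overlapped in part in the cells they marked. The median OHC had a read of 5 of the 6 genes and the median IHC of 3, and 16 of 52 OHCs and 11 of 87 IHCs had reads of all 6. At least 4 genes reached 10 CPM in 24 of 52 OHCs (6 of 31 in the lower-numbered and 18 of 21 in the higher-numbered series), against 15 of 87 IHCs (1 of 50 and 14 of 37). Over all 52 OHCs the Spearman correlations among Hs3st3b1, Cachd1, Dnm3 and Srpk2 ran from 0.34 to 0.57, and those of Wls with the other 5 genes from −0.62 to −0.22, with both series in 1 set. In OHCs of the higher-numbered series the 15 pairwise Spearman correlations ran from −0.73 (Wls and Srpk2) to 0.63 (Hs3st3b1 and Dnm3), with a median of 0.03 over 21 cells. In OHCs of the lower-numbered series they ran from −0.38 (Cachd1 and Wls) to 0.46 (Dnm3 and Srpk2), with a median of 0.28 over 31 cells. In IHCs the medians were −0.01 over 50 lower-series cells and 0.23 over 37 higher-series cells. Depth differed between cells of a series, and it had a rho with each gene of between −0.79 and 0.44 in lower-series OHCs. Most of these correlations are weak and no order of the genes is read from them.

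**Figure D5:**
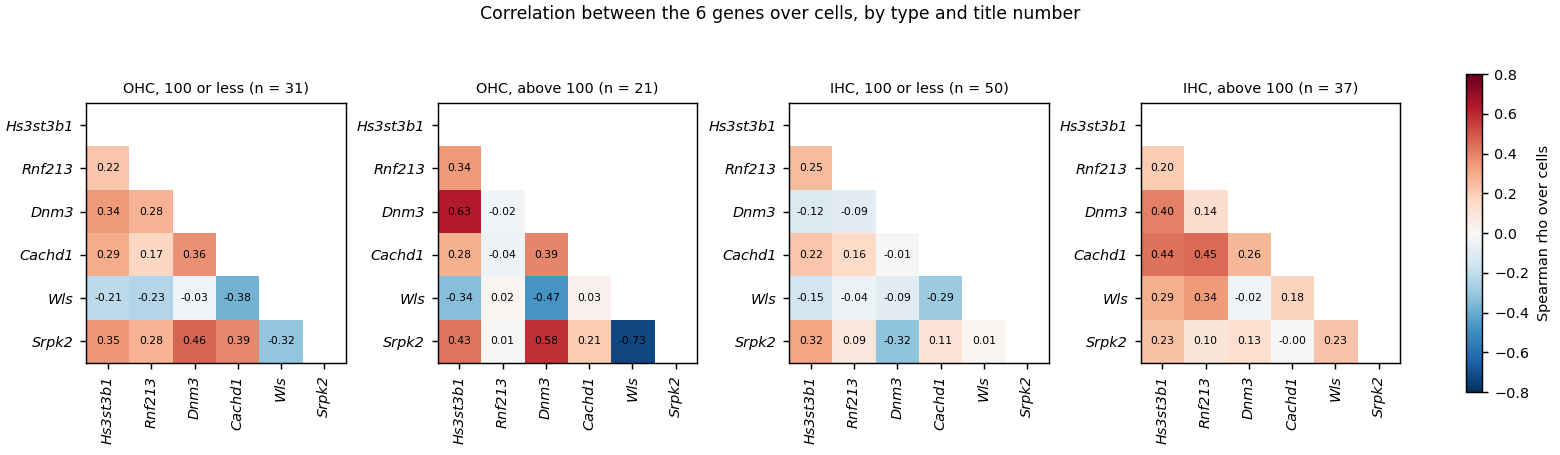
Spearman's rho between the CPM of each pair of the 6 genes over cells, from red (positive) to blue (negative), in OHCs and IHCs of both title-number series. The darkest blue square, at −0.73, is that of Wls and Srpk2 in the 21 OHCs numbered above 100, and the darkest red one, at 0.63, is that of Hs3st3b1 and Dnm3 in the same cells.

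The genes most like each member over all cells, among 11609 candidates and by Pearson's r of log2 (CPM + 1), included several OHC markers. For Hs3st3b1 they were Slc26a5 (0.78), Lbh (0.68) and Strip2 (0.63), and for Cachd1 Lbh (0.72), Slc26a5 (0.64) and Sri (0.63). Srpk2 was closest to Atp2b2 (0.62), which encodes the calcium pump of hair bundles, to Lpin2 (0.60) and to Ocm (0.59), the gene of the OHC calcium buffer oncomodulin. Dnm3 was closest to Strip2 (0.56), Lpin2 (0.55) and Hs3st3b1 (0.52). Wls was closest to Tpcn2 (0.78), Ros1 (0.77) and Bard1 (0.76), and Rnf213 to Wdr38 (0.46), Sh3rf3 (0.46) and Ttc9 (0.45). The cells differ in type, series and depth, and the members were chosen for a higher level in OHCs of these same cells. Likeness over both types therefore favours other genes high in OHCs. Among the OHCs alone Slc26a5 held rank 12 for Hs3st3b1 and rank 85 for Cachd1. Within the OHCs of the lower and higher series, Spearman's rho with Slc26a5 was 0.06 and 0.40 for Hs3st3b1, 0.50 and 0.60 for Srpk2 and 0.38 and 0.64 for Dnm3. For Cachd1 it was 0.28 and 0.30, for Rnf213 0.25 and 0.04 and for Wls −0.22 and −0.52. When the 52 OHCs alone were used, 1 of 3 genes was shared for Dnm3 (Lpin2, 0.73) and for Wls (Tpcn2, 0.80) and 0 of 3 for the other 4 members.

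Other genes of the same pathways were looked up in 10 lists of 179 genes, of which 140 passed 5 CPM in a group. Where the gene with the highest CPM in OHCs is named, CPM was not corrected for length. Across them 17 genes (12.1%) were 2-fold or more higher in OHCs in the mean of the regions and 55 (39.3%) were lower, against 17.3% and 39.2% of all genes. Among heparan sulfate enzymes, the family of Hs3st3b1, 0 of 14 were higher and 4 lower, and the one with the highest OHC level, Extl3, which encodes a starter enzyme of the chain, stood at 29.4, 37.5 and 198 CPM in OHCs, compared with 36.6, 40.6 and 28.7 CPM in IHCs. Hs3st3a1, the closest relative of Hs3st3b1 in name, had at most 0.0380 CPM in any group. Of 10 proteoglycan cores 1 was higher and 6 lower, with Sdc1 (−3.74) and Gpc4 (−1.57) 2-fold or more lower in all 3 regions. Sdc4, a syndecan, had the highest CPM of them, at 7916, 3302 and 12940 CPM in OHCs, compared with 12886, 6587 and 7952 CPM in IHCs.

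Of the other 3 dynamin-family genes 0 were higher and 2, Dnm1 (−1.38) and Dnm1l (−1.52), lower. Dnm1l, which acts in mitochondrial fission, had 328 CPM in apical, 28.8 in middle and 0.448 in basal OHCs, against 104.5, 63.8 and 47.8 CPM in IHCs. Dnm2 was at −0.97. Among 24 endocytic partners 3 were higher and 9 lower, Bin1 (−1.37) and the clathrin light chain gene Clta (−3.57) in all 3 regions. Ap2a2, a subunit of the clathrin adaptor, had the highest OHC level of them at 1252, 868 and 4103 CPM, against 384, 587 and 979 CPM in IHCs.

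Of 15 genes of Wnt ligands and their secretion 6 were higher and 4 lower. Porcn (−2.70), which attaches the lipid to Wnt proteins, Vps26a (−3.82), a retromer subunit, and Wnt7b (−2.02) were 2-fold or more lower in OHCs in all 3 regions. Wnt5a, the ligand gene with the highest OHC level, stood at 16.0, 55.7 and 109.6 CPM in OHCs, compared with 64.7, 21.02 and 22.2 CPM in IHCs. Of 32 Wnt receptor and pathway genes 2 were higher and 15 lower, 7 of these in all 3 regions, with Lgr6 (−6.39), Sfrp1 (−5.62) and Fzd3 (−4.78) the furthest. Lgr6 is also known from supporting cells, whose summed markers were lower in OHCs of the apex and middle than in IHCs, and their part in these values was not tested.

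Among 7 kinases related to Srpk2 that phosphorylate or act beside SR factors, 2 were higher and 2 lower, and the close relative Srpk1 stood at 255, 75.02 and 928 CPM in OHCs, compared with 252, 152 and 104.7 CPM in IHCs. Of 14 SR factor genes 1 was higher and 7 lower, none in all 3 regions. In the alpha2delta list of Cachd1, 1 of 4 was higher and 2 lower: Cacna2d1 (2.32) was 2-fold or more higher in OHCs in all 3 regions, at 7.84, 6.01 and 9.51 CPM in OHCs, compared with 0.465, 2.14 and 0.137 CPM in IHCs. Cacna2d2 (−2.62) was lower in all 3. Of 17 interferon-induced genes, the class that Rnf213 is also counted in, 1 was higher and 4 lower, with Stat2 (−2.99), Oasl2 (−2.92) and Usp18 (−2.86) lower in all 3 regions.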

How the data were processed

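Each sample is 1 mouse hair cell. The authors deposited 1 table of raw read counts per gene for 139 cells and 55335 gene identifiers. The submitters' processing notes name Trimmomatic, HISAT2, featureCounts, Subread 1.4.6 and GRCm38 (mm10); their roles are inferred, and no source used here states strandedness or molecular identifiers. Symbols and exons came from the GENCODE M21 annotation of GRCm38, and promoters from RefSeq tables of GRCm38.p6. The table had 0 unused value columns.

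Counts were summed per group, scaled with the TMM method (computed in Python 3.11.15 and checked against edgeR 4.0.16) and given as CPM. Differences are log2 ratios with 1 CPM added. CPM of single cells uses library totals. Genes needed 5 CPM in a group (15004 did). Cells were thinned to percentile 10 of the totals, 582635 counts, which kept 125. Depth per cell ran from 71027 to 13576942 counts. Without named animals a group is 1 sample, so no test was run. PCR copies are not independent molecules, so intervals cover counting error only. Steps were tested on simulated counts.

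The members and gene lists were chosen with earlier results of these data known. Other genes were named by fixed rules: the first below the ranking, the 3 most like each member, list genes 2-fold apart in all 3 regions (up to 4) or highest in OHCs, and overlapping genes. Hs3st3a1, Dnm1, Dnm1l, Dnm2, Srpk1 and the highest marker cells were named after their values were seen.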

Additional observations from a re-analysis of the deposited data

Results flagged for a closer look

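Among the basal OHCs, a group of 8 cells, the highest value of 2 of the 6 genes lay far above the rest. Wls stood at 260703 CPM in the OHC numbered 49, the next cell was at 261 CPM, and the gap was 0.999 of the whole range. Srpk2 stood at 1964 CPM in the OHC numbered 41, with the next cell, whose summed IHC markers exceeded its OHC markers, at 494 CPM and a gap of 0.748 of the range. The limit used is passed by chance in about 5% of groups drawn from a normal distribution, and CPM over cells is strongly skewed. Only groups of at most 10 cells were examined, which left 6 sets of values.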

How the results depend on the processing

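No difference was tested, so alternatives were compared by value, 12 of them planned and 4 chosen after seeing the data. Of the 6 genes, 3 were 2-fold or more higher in OHCs in the middle and 3 in the base with the median cell, and 2 in the base among cells numbered above 100. Elsewhere the count per region was 4 to 6. The median difference between OHCs and IHCs (3.79) was 4.26 with median-of-ratios scaling, 3.69 with library totals, 3.40 with the mean cell, 2.31 with the median cell, 4.09 and 3.21 with pseudocounts of 0.1 and 5 CPM, 2.79 without the deepest cells, 2.61 without the leading cells, 3.53 after thinning, 4.996 in the lower series, 1.64 in the higher and 2.64 in their mean, 3.90 without the 2 higher-numbered basal OHCs and 4.01 without cells whose markers went against the label. In OHCs, middle minus apex (−0.80) was −1.16 with median-of-ratios scaling, −0.39 with totals, −1.05 and −2.77 with the mean and median cell, −0.66 without the deepest and −1.89 without the leading cells, −0.45 after thinning, 0.30 in the lower series, −1.98 in the higher, −0.47 in their mean and −0.78 without cells against the label. Base minus apex (−1.19) was −0.44, −1.67, −1.72, −4.43, −5.03, −4.25, −1.97, 1.31, −6.07, −1.65 and −0.65 in the same order, and −0.82 without the 2 basal OHCs. Both regional medians had the other sign in the lower series.

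Among single genes Wls turned round in the apex with the median cell (−3.83), in the higher series (−3.62) and in the mean of the series (−0.80), in the middle in the last 2 (−2.20 and −0.40), and averaged over regions in the higher series (−0.84). In that series Hs3st3b1 (−0.32), Cachd1 (−1.18) and Srpk2 (−5.93, against 0 counts, so set by the pseudocount) turned round in the base and Srpk2 averaged over regions (−1.01). The cause was not tested. Without the filter on low values 5.45% of genes, not 17.3%, were 2-fold or more higher in OHCs. Of the other values 296 moved beyond the spread used and 151 did not. No paired analysis was possible because title numbers shared between groups tie no animals together and no test was run. Depth limits the 14 cells under 582635 counts, and the number of cells limits all shares in the 8 basal OHCs.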
